A study of Mus musculus with 4 samples.

Results

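Nuclear receptors are transcription factors that bind DNA through a zinc-finger domain, and many of them are switched by small fat-soluble ligands such as steroids, thyroid hormone, vitamin D, oxysterols and fatty acids. Most bind short DNA half-sites related to AGGTCA, as pairs with a retinoid X receptor, as pairs with themselves or alone, and recruit corepressors or coactivators according to the ligand. In mesenchymal cells, which can become fat, cartilage, bone or muscle, receptors of this family are known as regulators of lineage choice and of lipid, hormone and clock responses. The members described here were 34 nuclear receptor genes named in a list by symbol, and all 34 were found among the 20325 gene symbols of the deposited expression matrix. The retinoic acid receptors and Pparg were not on that list, and their values are given once, further on, among the other receptors.

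RNA was sequenced from C3H10T1/2 cells, a multipotent mesenchymal line derived from C3H mouse embryos, used at passage 10 to 15. In the WT cells a stable transgene encoded unchanged histone H3.3 carrying a FLAG-HA tag (n = 2 libraries). In the K36M cells it encoded the tagged histone with methionine in place of lysine at position 36 (n = 2 libraries). H3.3 K36M is known as an inhibitor of H3K36 methyltransferases, and the comparison asks which receptor genes differ in cells that carry it. Both groups therefore carried a tagged transgene, and the sources used here do not say whether each line was a single clone. The labels do not say that the replicates were separate cultures, so the p-values measure only how far these libraries spread, which may be technical. Totals ran from 23343297 to 56041798 expected counts per library, with K36M 1.85 times as deep on average. The 9 mesenchymal markers checked (Prrx1, Twist1, Twist2, Col1a1, Col1a2, Pdgfra, Pdgfrb, Vim and Thy1) were all above 1 CPM (counts per 1e6 of the scaled library) in every library. Of these 9, 4 were called higher and 4 lower in K36M by the test described below, beside 38.5% and 37.1% of all genes tested. Thy1 was 11.2-fold higher and Col1a2 1.72-fold lower. Markers of other cell types are given at the end.

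Of the 34 receptors, 26 had enough counts to be tested and 8 did not. Among the 26, 9 were higher and 9 were lower in K36M at an adjusted p under 0.05 (edgeR quasi-likelihood test, Benjamini-Hochberg over 13162 genes), which is 69.2% of those tested against 75.6% of all genes tested. Higher calls made up 34.6% of the tested receptors against 38.5% of all genes, and lower calls 34.6% against 37.1%. The share of receptors that changed was thus near the background, and the median log2 fold change of the 26 was -0.05 against 0.00 for all genes tested. Changes of at least 2-fold were seen in 8 receptors, against 21.3% of all genes tested. Of these 5 were rises (19.2% of receptors, 12.7% of all genes) and 3 were falls (11.5% of receptors, 8.69% of all genes). The rises of that size were of Thrb, Ppara, Esr1, Nr2f1 and Nr4a2, and the falls were of Vdr, Nr4a1 and Nr6a1. Thrb, Ppara and Esr1 had at most 5 expected counts in any WT library and entered the test only through their K36M counts. Such genes can appear only as rises, so the share of large rises is not read as a result about the receptors. No receptor of the list stands in the authors' deposited table of 594 genes with a ratio over 10 or under 0.1.

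**Figure D1:**
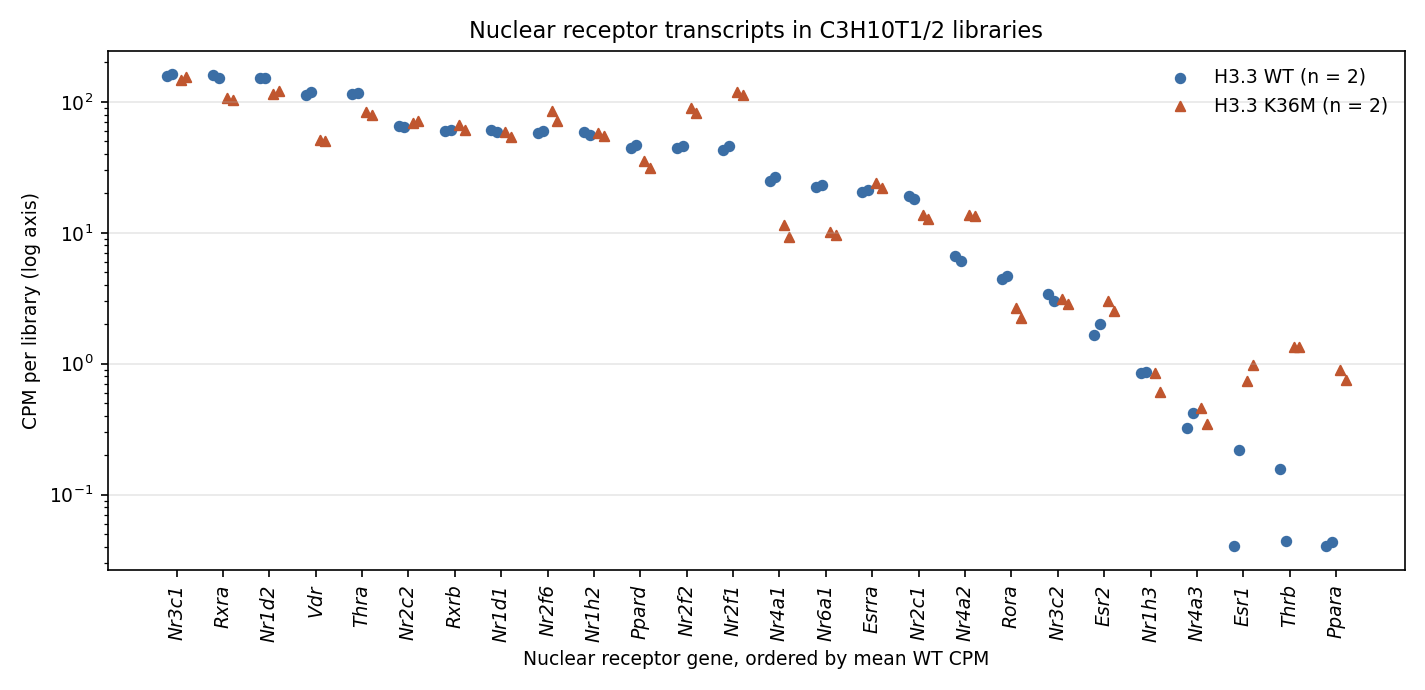
Expression in CPM on a log axis of the 26 tested nuclear receptor genes, ordered by mean WT level, with 1 point per library (circles, WT; triangles, K36M). The K36M points of Nr2f1, Nr2f2 and Nr4a2 lie above their WT points, those of Vdr, Nr4a1 and Nr6a1 lie below them, and Esr1, Thrb and Ppara are under 0.3 CPM in both WT libraries.

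No receptor that passed the test changed direction under the other scalings tried, but the balance of calls moved. With the authors' own scaling factors 8 receptors were higher and 12 lower, and with upper quartile scaling or total counts 11 were higher and 9 lower. The 3 receptors added to the lower side by the authors' factors were Nr1d1 (log2 fold change -0.16), Nr1h2 (-0.12, adjusted p = 0.0386) and Nr3c1 (-0.18), and Nr2c2 left the higher side. In 22 of the 26 tested receptors (84.6%) the WT and K36M libraries did not overlap, against 87.1% of all genes tested.

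The 3 NR4A receptors, orphan receptors that are known as immediate early genes induced without a lipid ligand, did not move together. Nr4a1, also called Nur77, read 24.7 and 26.9 CPM in WT, against 11.4 and 9.33 CPM in K36M. Both K36M values were below both WT values, a 2.46-fold fall (log2 fold change -1.30, SE 0.09, adjusted p = 2.26e-10). Its paralog Nr4a2, also called Nurr1, read 6.66 and 6.05 CPM in WT, against 13.6 and 13.4 CPM in K36M, a 2.12-fold rise (log2 fold change 1.09, SE 0.10, adjusted p = 8.37e-09). The third paralog, Nr4a3, was near detection at 0.323 and 0.422 CPM in WT and 0.458 and 0.345 CPM in K36M, with overlapping groups (adjusted p = 0.775). Its log2 fold change of 0.13 had an SE of 0.41, so a difference of moderate size in either direction was not detectable at this depth.

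The ratio of Nr4a2 to Nr4a1 counts within a library is free of library scaling. It was 0.27 and 0.225 in the WT libraries and 1.2 and 1.43 in the K36M libraries, 5.32 times as high on average. The groups did not overlap, and with 2 libraries a group the smallest p that an exact two-sided permutation test allows is 0.333. Scaled by transcript length, Nr4a1 was above Nr4a2 in WT, at 10.4 ± 0.63 against 1.78 ± 0.12 CPM per kb (SD, n = 2). In K36M the levels were 4.18 ± 0.585 and 3.78 ± 0.0465 CPM per kb, a gap smaller than the SD of Nr4a1.

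The promoters of these paralogs are shown because the pair went in opposite directions. Each line gives the 150 bases before the annotated start in RefSeq (build GRCm38.p6; the authors' files used mm9), read 5′ to 3′ on the gene's strand, at chr15:101266696-101266845 (plus strand) for Nr4a1 and chr2:57124004-57124153 (minus strand) for Nr4a2. Capitals mark TGACG, the half-site of the cAMP response element, and GGGCGG, the GC box, on either strand; these letters did not overlap here.
Nr4a1: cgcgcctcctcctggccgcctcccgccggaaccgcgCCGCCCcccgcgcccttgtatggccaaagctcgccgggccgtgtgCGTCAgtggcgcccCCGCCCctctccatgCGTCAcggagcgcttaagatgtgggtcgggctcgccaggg
Nr4a2: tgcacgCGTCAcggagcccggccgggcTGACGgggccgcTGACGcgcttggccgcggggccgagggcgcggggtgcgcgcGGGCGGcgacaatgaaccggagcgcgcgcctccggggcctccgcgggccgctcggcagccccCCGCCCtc
The Nr4a1 stretch held 2 copies of TGACG, starting 69 and 40 bases before the start, and the Nr4a2 stretch held 3, at 144, 123 and 111 bases. Each held 2 GC boxes. Among 32851 RefSeq promoters, 13.3% had TGACG and 28.6% had GGGCGG in the same window. The half-site AGGTCA, searched on both strands from 250 bases before to 50 after the start, was in 7 of the 47 windows found for 32 of the receptors and in 16.3% of all promoters. Those 7 windows belonged to Nr1d2, Nr1h4, Nr5a2, Nr6a1, Rxra, Rxrg and Thrb, of which Nr1d2, Nr6a1 and Rxra were lower and Thrb higher in K36M. These matches describe the letters of a reference genome, and expression was counted per gene, so nothing here says which start site was used.

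The COUP-TF genes, of orphan receptors known to act in mesenchyme and to repress or modulate other receptors at shared half-sites, rose together. Nr2f1 (COUP-TFI) read 42.9 and 46.1 CPM in WT, against 118 and 112 CPM in K36M, a 2.59-fold rise (log2 fold change 1.37, SE 0.05, adjusted p = 2.03e-14). Nr2f2 (COUP-TFII), which is known to hold back fat cell formation, read 44.5 and 45.9 CPM in WT, against 89.996 and 81.9 CPM in K36M, a 1.91-fold rise (log2 fold change 0.93, SE 0.05, adjusted p = 1.68e-11). In both genes every K36M library was above every WT library. The ratio of Nr2f1 to Nr2f2 counts went from 0.964 and 1.004 in WT to 1.31 and 1.37 in K36M, so Nr2f1 moved further than Nr2f2 in both libraries.

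Nr2f6, the third COUP-TF relative, read 57.9 and 59.5 CPM in WT, against 85.2 and 71.9 CPM in K36M, a 1.34-fold rise (adjusted p = 8.23e-06). Its K36M libraries were the further apart of the 2 groups but both lay above WT. In a GRCm38 annotation 54.4% of the exonic bases of Nr2f6 overlap exons of Ocel1 on the other strand. The sources used here do not say whether the libraries kept strand, so reads of the shared stretch cannot be assigned to 1 gene with certainty. Ocel1 itself read 11.9 and 11.4 CPM in WT, against 11.2 and 10.1 CPM in K36M and did not pass the test (adjusted p = 0.257).

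**Figure D2:**
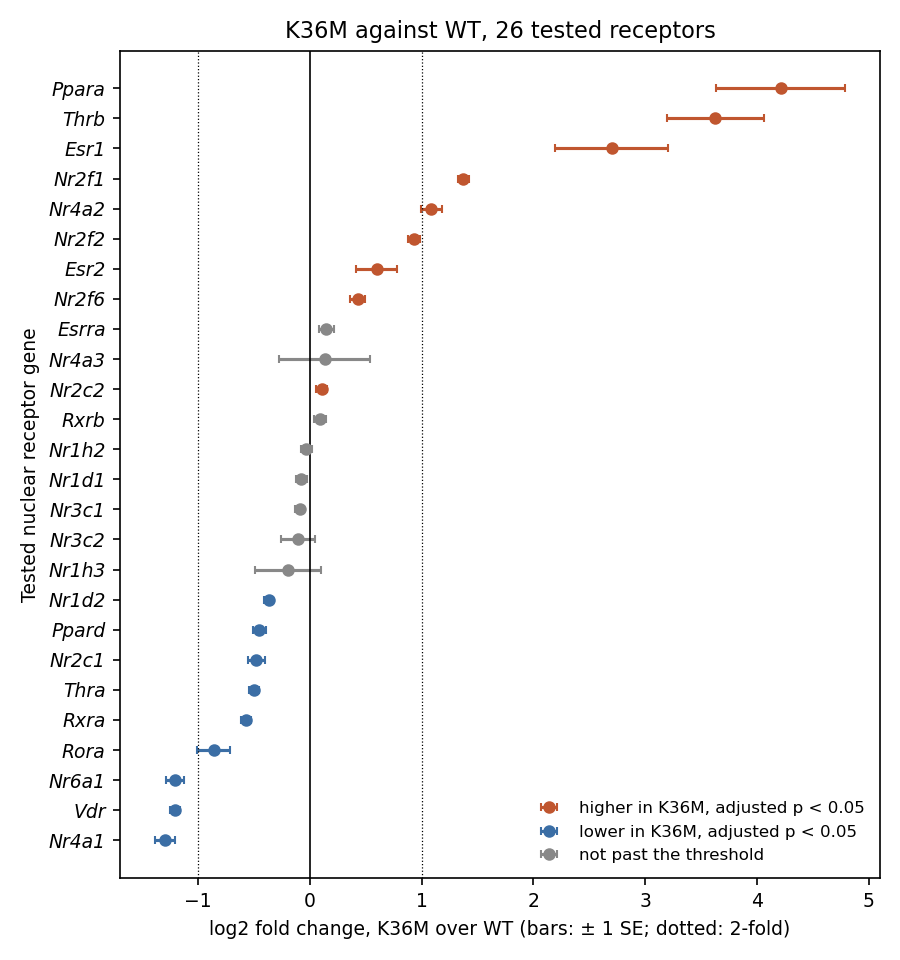
Log2 fold change of K36M over WT for the 26 tested nuclear receptor genes, with bars of 1 SE from the edgeR fit; colours mark genes higher, lower or not past an adjusted p of 0.05, and dotted lines mark 2-fold. Ppara, Thrb and Esr1 lie furthest to the right with the widest bars, and Nr4a1 (-1.30), Vdr (-1.21) and Nr6a1 (-1.21) furthest to the left.

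The heterodimer partners changed unequally. Rxra, the retinoid X receptor alpha gene, read 159.8 and 153.5 CPM in WT, against 107 and 103 CPM in K36M, a 1.49-fold fall (adjusted p = 6.88e-10). Rxrb read 60.0 and 60.8 CPM in WT, against 66.9 and 61.2 CPM in K36M and did not pass the test (log2 fold change 0.09, SE 0.05, adjusted p = 0.118). It passed, on the higher side, with upper quartile scaling (0.0276), total counts (0.0173), a mean of at least 5 CPM (0.0498) and without K36M replicate 2 (0.0029). The count ratio of Rxrb to Rxra, free of scaling, was 0.375 and 0.396 in WT and 0.624 and 0.593 in K36M. Rxrg, known from muscle and neural tissue, had at most 1 expected count in any library.

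Vdr, which encodes the vitamin D receptor, a partner of RXR with known roles in bone and cartilage, fell in K36M. It read 113 and 119.7 CPM in WT, against 50.7 and 50.1 CPM in K36M, a 2.31-fold fall (log2 fold change -1.21, SE 0.05, adjusted p = 3.42e-14). Replicates lay far closer to each other than the groups did. The count ratio of Vdr to Rxra also fell, from 0.709 and 0.78 in WT to 0.473 and 0.485 in K36M, so Vdr moved further than its partner gene.

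The thyroid hormone receptor genes went in opposite directions from very different levels. Thra read 114 and 116 CPM in WT, against 83.7 and 79.0 CPM in K36M, a 1.41-fold fall (adjusted p = 1.08e-08). Thrb had expected counts of 3.92 and 1.01 in the WT libraries and 76.1 and 46.2 in the K36M libraries, or 0.158 and 0.0439 against 1.34 and 1.33 CPM. The fitted fold was 12.4 (log2 fold change 3.63, SE 0.44, adjusted p = 5.28e-07), and it rests on very few WT reads. The log2 fold change was 4.83 without WT replicate 1 and 3.01 without WT replicate 2, with the call kept in both (adjusted p = 1.24e-07 and 4.46e-06). The count ratio of Thrb to Thra was 0.00139 and 0.000377 in WT and 0.016 and 0.0168 in K36M. Thra shares 263 exonic bases with Nr1d1, which lies on the other strand, or 5.70% of the exonic bases of Thra and 8.55% of those of Nr1d1.

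The PPAR genes, of receptors for fatty acids, also moved apart. Ppara, known from liver and other fat-burning tissue, had 1 count in each WT library and 51 and 26 in the K36M libraries, or 0.0403 and 0.0434 against 0.898 and 0.748 CPM. The ratio of group levels was 20.1 with a 95% counting interval of 5.38 to 169 (Clopper-Pearson, counting error only), and the edgeR adjusted p was 2.85e-06. Ppard, the broadly expressed member, read 44.7 and 46.6 CPM in WT, against 35.2 and 31.1 CPM in K36M, a 1.37-fold fall (adjusted p = 1.49e-06). The count ratio of Ppard to Ppara was 1108 and 1073 in WT and 39.2 and 41.5 in K36M.

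**Figure D3:**
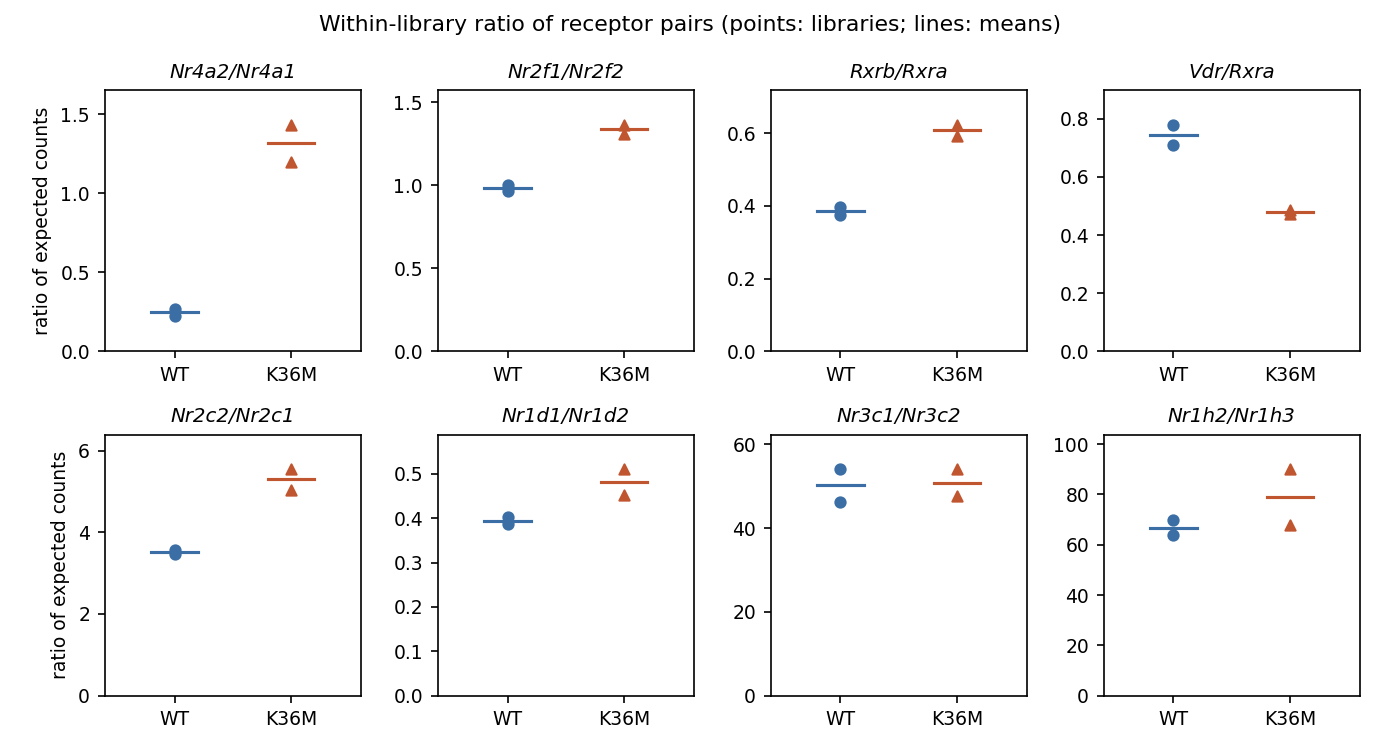
Ratio of expected counts of receptor pairs within each library (circles, WT; triangles, K36M; short lines, group means), which does not change with library scaling; each axis starts at 0. WT and K36M libraries are apart for Nr4a2/Nr4a1, Nr2f1/Nr2f2, Rxrb/Rxra, Vdr/Rxra, Nr2c2/Nr2c1 and Nr1d1/Nr1d2, and overlap for Nr3c1/Nr3c2 and Nr1h2/Nr1h3.

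Among the tested clock receptors Rora and Nr1d2 fell. Rora, which encodes an activator at ROR response elements, read 4.40 and 4.69 CPM in WT, against 2.68 and 2.24 CPM in K36M, a 1.82-fold fall (adjusted p = 3.63e-05). Nr1d2 (REV-ERB beta), a repressor at the same elements, read 151 and 152 CPM in WT, against 115 and 120.3 CPM in K36M, a 1.29-fold fall (adjusted p = 2.56e-07). Its paralog Nr1d1 (REV-ERB alpha) read 60.9 and 58.7 CPM in WT, against 58.9 and 54.4 CPM in K36M, with overlapping groups (log2 fold change -0.07, SE 0.05, adjusted p = 0.193). Nr1d1 passed as lower with the authors' factors (0.00638) and without K36M replicate 1 (0.0121). Rorb had 1 count in WT and 16 in K36M and was not tested; the ratio of 8.36 had a 95% counting interval of 1.30 to 350.4.

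The liver X receptors, sensors of oxysterols, did not pass the test. Nr1h2 (LXR beta, the broadly expressed form) read 59.2 and 55.4 CPM in WT, against 57.5 and 54.5 CPM in K36M (log2 fold change -0.03, SE 0.05, adjusted p = 0.588). Nr1h3 (LXR alpha, known from liver, fat and macrophages) read 0.847 and 0.869 CPM in WT, against 0.845 and 0.604 CPM in K36M (log2 fold change -0.19, SE 0.29, adjusted p = 0.558). Nr1h4, the bile acid receptor FXR, had 0 counts in WT and 2 in K36M.

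The glucocorticoid receptor gene was among the better expressed members and differed little. Nr3c1 read 159 and 162 CPM in WT, against 148 and 154 CPM in K36M, and the difference lay just beyond the threshold (log2 fold change -0.09, SE 0.04, adjusted p = 0.0524). It passed as lower with the authors' factors (0.000796), with no low-count filter (0.0411), with limma-voom (0.0486) and without K36M replicate 2 (0.00771), at log2 fold changes of -0.18 to -0.09. Nr3c2, the mineralocorticoid receptor gene, read 3.43 and 2.998 CPM in WT, against 3.10 and 2.85 CPM in K36M with overlapping groups (log2 fold change -0.10, SE 0.15, adjusted p = 0.544). The count ratio of Nr3c1 to Nr3c2 was 46.3 and 54.2 in WT and 47.6 and 54.2 in K36M.

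Both estrogen receptor genes were weakly expressed and higher in K36M. Esr1 (ER alpha) had 1 and 5 counts in the WT libraries and 41.9 and 34 in the K36M libraries, or 0.0403 and 0.217 against 0.737 and 0.979 CPM. It was 6.49-fold higher in the fit (log2 fold change 2.70, SE 0.50, adjusted p = 9.82e-05). The size rests on single WT libraries, since the log2 fold change was 1.93 without WT replicate 1 and 4.27 without WT replicate 2, and the call held in both (adjusted p = 0.00247 and 2.64e-05). Esr2 (ER beta) read 1.65 and 2.02 CPM in WT, against 2.99 and 2.51 CPM in K36M, a 1.51-fold rise (adjusted p = 0.00701). That call was lost with the DESeq2 Wald test (adjusted p = 0.118), without WT replicate 1 (0.101) and without K36M replicate 1 (0.0977). Pgr, the progesterone receptor gene, had 0 counts in WT and 3 in K36M.

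Of the estrogen-related receptors, orphans known for control of mitochondrial genes, Esrra read 20.3 and 21.1 CPM in WT, against 23.9 and 21.9 CPM in K36M (log2 fold change 0.15, SE 0.07, adjusted p = 0.0589). The groups were apart, and Esrra passed as higher with DESeq2 size factors (0.0476), upper quartile scaling (0.0188), total counts (0.0139), a mean of at least 5 CPM (0.0339) and without K36M replicate 2 (0.006). Esrrb, known from pluripotent cells, had 0 counts in both WT libraries and 12 and 13 in the K36M libraries. That was at least 4.35-fold higher against a floor of 3 counts over the WT group, with the K36M counts taken as exact. Esrrg had 0 counts in WT and 6 in K36M. Neither was tested.

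The testicular receptor genes and the germ cell nuclear factor gene complete the tested members. Nr6a1, which encodes germ cell nuclear factor, a repressor known to silence pluripotency genes, fell from 22.2 and 23.3 CPM in WT to 10.1 and 9.58 CPM in K36M, 2.31-fold (log2 fold change -1.21, SE 0.08, adjusted p = 9.3e-11). Nr2c1 (TR2) fell from 19.0 and 18.03 CPM to 13.7 and 12.8 CPM, 1.39-fold (adjusted p = 2.45e-05). Nr2c2 (TR4) read 65.8 and 64.1 CPM in WT, against 68.8 and 71.1 CPM in K36M, a 1.08-fold rise just past the threshold (adjusted p = 0.0476).

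The call for Nr2c2 was lost with the authors' factors (adjusted p = 0.712), with no low-count filter (0.0786), with the DESeq2 Wald test (0.153), with a replicate block (0.0513) and without WT replicate 1 (0.121), WT replicate 2 (0.307) or K36M replicate 2 (0.0938). In the GRCm38 annotation 30.7% of its exonic bases overlap Mrps25 on the other strand, a gene that rose 1.25-fold (adjusted p = 7.03e-06). The part of that overlap in the Nr2c2 value was not tested.

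The remaining untested members were those with next to no reads. Hnf4a, a master regulator of liver and gut epithelium, had 0 counts in WT and 2 in K36M, and Nr5a2 (LRH-1), known from liver and pluripotent cells, had at most 1 expected count in any library. A floor of 3 counts corresponds to 0.0628 CPM over the WT group and 0.0328 CPM over the K36M group, so no fold is given for Nr1h4, Hnf4a, Rxrg, Pgr or Nr5a2.

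Scaled by the length of the longest coding transcript with a RefSeq match in a GRCm38 annotation, the order of receptors differed between the groups. Thra was first in both WT libraries at 47.0 ± 0.652 CPM per kb (SD, n = 2), followed by Nr1d2 (32.5 ± 0.0904) and Rxra (31.9 ± 0.903), which changed places between the WT libraries. In K36M Nr2f1 (35.8 ± 1.33) and Nr2f6 (35.4 ± 4.26) lay within their spread of each other, with Nr2f6 first in 1 library and Nr2f1 in the other. Thra (33.2 ± 1.36) ranked 3 in both K36M libraries. Nr2f1 ranked 10 or 11 of 34 in the WT libraries and 1 or 2 in the K36M libraries, while Vdr ranked 5 or 6 and then 11. The Vdr level was 26.7 ± 1.05 CPM per kb in WT and 11.5 ± 0.108 in K36M. The isoforms in use are not known, so these scaled levels are approximate.

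**Figure D4:**
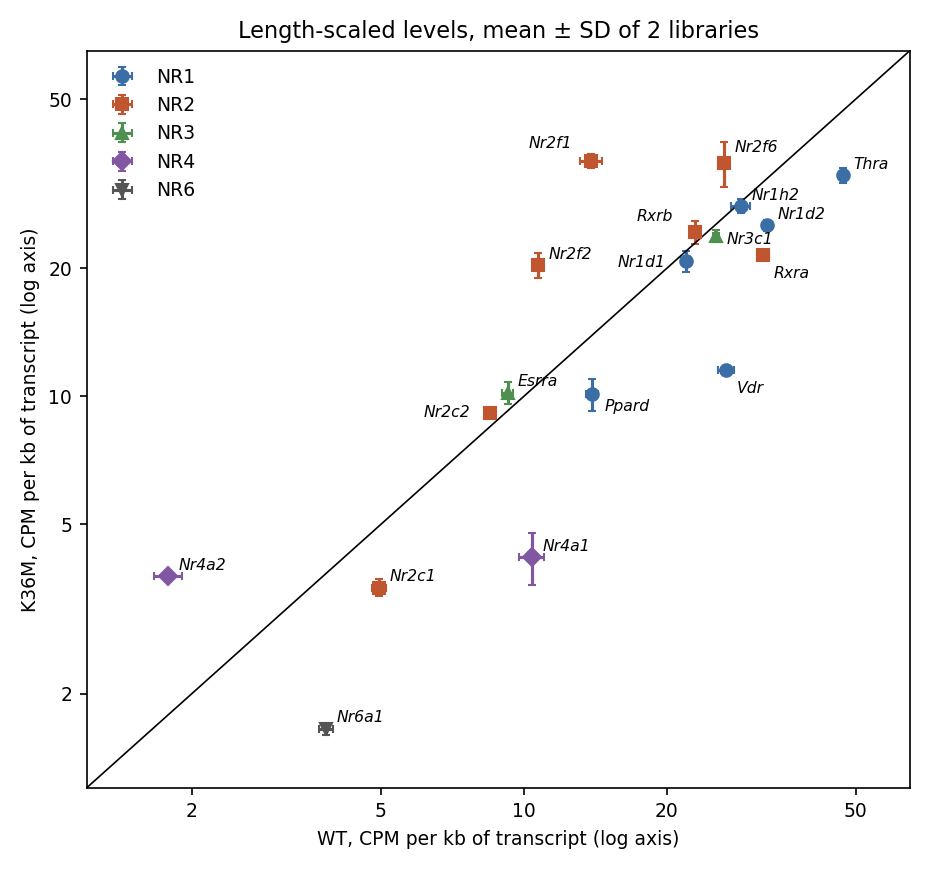
Mean CPM per kb of transcript in WT (horizontal, log axis) and K36M (vertical, log axis) for the receptors above 1 CPM per kb in WT, with bars of 1 SD over 2 libraries; shape and colour give the subfamily and the line marks equal levels. Nr2f1, Nr2f2 and Nr4a2 lie above the line, Vdr, Nr4a1 and Nr6a1 below it, and Nr3c1, Nr1d1 and Nr1h2 close to it.

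By subfamily, the NR1 group (thyroid, PPAR, clock, LXR, FXR and vitamin D receptors) had 2 rises and 5 falls among 10 tested genes, with a median log2 fold change of -0.28. The NR2 group (RXR, COUP-TF, testicular receptors and Hnf4a) had 4 rises and 2 falls among 7, with a median of 0.11. The NR3 group (steroid and estrogen-related receptors) had 2 rises and 0 falls among 5, with a median of 0.15. With 38.5% of all genes higher and 37.1% lower, these counts are too small to set one subfamily apart, and no test of such a difference was made.

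Of 14 receptor genes outside the list 6 were tested (median log2 fold change 0.45). Pparg, the master regulator of fat cells, fell from 28.7 ± 0.541 to 12.1 ± 1.03 CPM (adjusted p = 2.82e-11). The retinoic acid receptor genes, picked with their values known, were not called. Rarg averaged 318 ± 0.427 CPM in WT and 309.8 ± 6.59 CPM in K36M (SD, n = 2; adjusted p = 0.359). Rara averaged 72.9 ± 0.225 and 74.9 ± 6.01 CPM (adjusted p = 0.462), and Rarb 0.272 ± 0.0154 and 0.519 ± 0.161 CPM (adjusted p = 0.0865).

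Coregulators, the proteins that receptors recruit to chromatin, changed by small amounts in both directions. All 26 were tested, and 11 rose and 7 fell (median 0.08), beside 38.5% and 37.1% of all genes. The higher share was near that background, and none changed 2-fold. Ppargc1b, a coactivator of mitochondrial genes, rose from 2.67 ± 0.215 to 4.97 ± 0.394 CPM (adjusted p = 1.45e-05), its relative Pprc1 rose 1.49-fold and Tbl1x, a subunit of the NCoR corepressor complex, 1.45-fold. Nrip1, the corepressor RIP140, fell 1.49-fold. Ncoa1 and Ncoa3, p160 coactivators (picked with their values known), fell with a log2 fold change of -0.52 each, and their relative Ncoa2 did not pass the test (0.01, adjusted p = 0.838).

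Enzymes that make or clear receptor ligands held some of the larger differences. Of 24 such genes and carriers 15 were tested, and 6 rose and 5 fell (median -0.06), shares near the 38.5% and 37.1% of all genes. At least 2-fold were 3 rises and 4 falls, beside 12.7% and 8.69% of all genes. All 3 of these rises were of genes with 0 counts in WT, which entered the test only through their K36M counts. Such genes can appear only as rises, so the share of large rises is not read as a result about this list. With a mean of at least 5 CPM 2 were higher and 2 lower. Hsd11b1, which regenerates active glucocorticoid inside cells, fell from 39.6 and 38.3 CPM in WT to 0.863 and 1.32 CPM in K36M, 37.2-fold (adjusted p = 1.08e-17). Dio2, which activates thyroid hormone, went from 0 counts in WT to 174 in K36M, at least 30.3-fold higher. Cyp27a1, a sterol hydroxylase, went from 0 counts in WT to 97 in K36M, at least 16.9-fold higher. Fabp4, a fatty acid carrier of fat cells, fell from 3.53 ± 0.54 to 0.563 ± 0.0991 CPM. Each of these sits at a low level in at least 1 group.

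Lists of known target genes were read beside their receptors. They come from several tissues, many of the genes answer to other factors, and some sit in more than 1 list. For the glucocorticoid receptor 10 of 14 tested targets rose and 2 fell, beside 38.5% and 37.1% of all genes. Their median log2 fold change was 0.91 against 0.00 for all genes, and Nr3c1 itself was not past the threshold. No test of the list as a whole was made. Pdk4, which restrains glucose oxidation, rose from 3.28 and 3.66 to 57.2 and 58.1 CPM, and Angptl4, a secreted lipase inhibitor, from 2.18 and 2.39 to 48.6 and 45.0 CPM. Lcn2 rose 5.78-fold (log2 fold change 2.53, and 3.15 without WT replicate 1), and Cebpd fell 2.92-fold. The Lcn2 fold rests on few WT reads, with 9 and 4 expected counts in the WT libraries and 102 and 45 in the K36M libraries. Pdk4 and Angptl4 also sit in the PPAR list, so the lists are not independent of each other.

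Of 17 tested PPAR targets 6 were higher and 9 lower (median -0.31), beside 38.5% and 37.1% of all genes. Besides Pdk4 and Angptl4, the list held Fabp4 and Ehhadh, a peroxisomal enzyme of fatty acid oxidation, which fell 6.39-fold and 3.04-fold. Of 13 tested liver X receptor targets 4 were higher and 5 lower (median -0.19). The cholesterol exporter gene Abca1 fell from 106 ± 5.13 to 37.9 ± 0.585 CPM (adjusted p = 3.43e-15), the desaturase gene Scd2 1.65-fold and Pltp 1.505-fold, and Arl4c rose 2.28-fold.

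Targets of vitamin D, thyroid and sex steroid receptors went both ways, as did all genes tested (38.5% higher and 37.1% lower). These lists are too short to set apart from those shares. Of 5 tested vitamin D receptor targets 2 rose and 2 fell (median -0.08), with Spp1, the osteopontin gene, 4.26-fold higher and Lrp5, a Wnt coreceptor gene, 6.31-fold lower. Cdkn1a fell 1.07-fold (adjusted p = 0.0271), a call lost with upper quartile scaling, total counts, a mean of at least 5 CPM, the DESeq2 Wald test and without either WT replicate (adjusted p = 0.0784 to 0.273). Of 6 thyroid hormone targets 3 rose and 2 fell (median 0.10). Hr, a corepressor gene that binds thyroid and vitamin D receptors, fell from 221 and 212 to 17.0 and 16.0 CPM, 13.1-fold. Atp2a2 rose 1.21-fold, and Nrgn went from 1 count to 118. Mbp fell 1.62-fold (adjusted p = 0.0201), a call lost with the DESeq2 Wald test (0.221), without WT replicate 1 (0.105) and without K36M replicate 1 (0.233).

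Of 8 estrogen and progesterone receptor targets 4 rose and 4 fell (median -0.08). Igf1, the growth factor gene, fell 59.2-fold and Wisp2 3.89-fold, while Igfbp4, which binds IGF proteins, rose 26.9-fold and Areg, an EGF receptor ligand gene, went from 1 count in WT to 106 in K36M. Of 13 tested clock genes listed for REV-ERB and ROR 4 were higher and 8 lower (median -0.16), beside 38.5% and 37.1% of all genes. Genes of this list also answer to other factors. The lower count was 6 with total counts and without WT replicate 2. Cry2, Cry1 and Clock fell 1.93-fold, 1.68-fold and 1.54-fold and Bhlhe41 2.44-fold, while Arntl, a main REV-ERB target named after its values were seen, rose from 7.17 to 9.54 CPM on average (adjusted p = 0.00108). Of 20 listed targets of the estrogen-related receptors, mostly mitochondrial genes, 11 rose and 1 fell (median 0.20). Pdk4 was among the rises, and Vegfa (not itself a mitochondrial gene), Mfn2 and Atp5b were 1.99-fold, 1.37-fold and 1.36-fold higher. The shares of all genes were 38.5% higher and 37.1% lower. With the authors' factors 5 of these 20 were lower, and without K36M replicate 2 the number was 3.

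**Figure D5:**
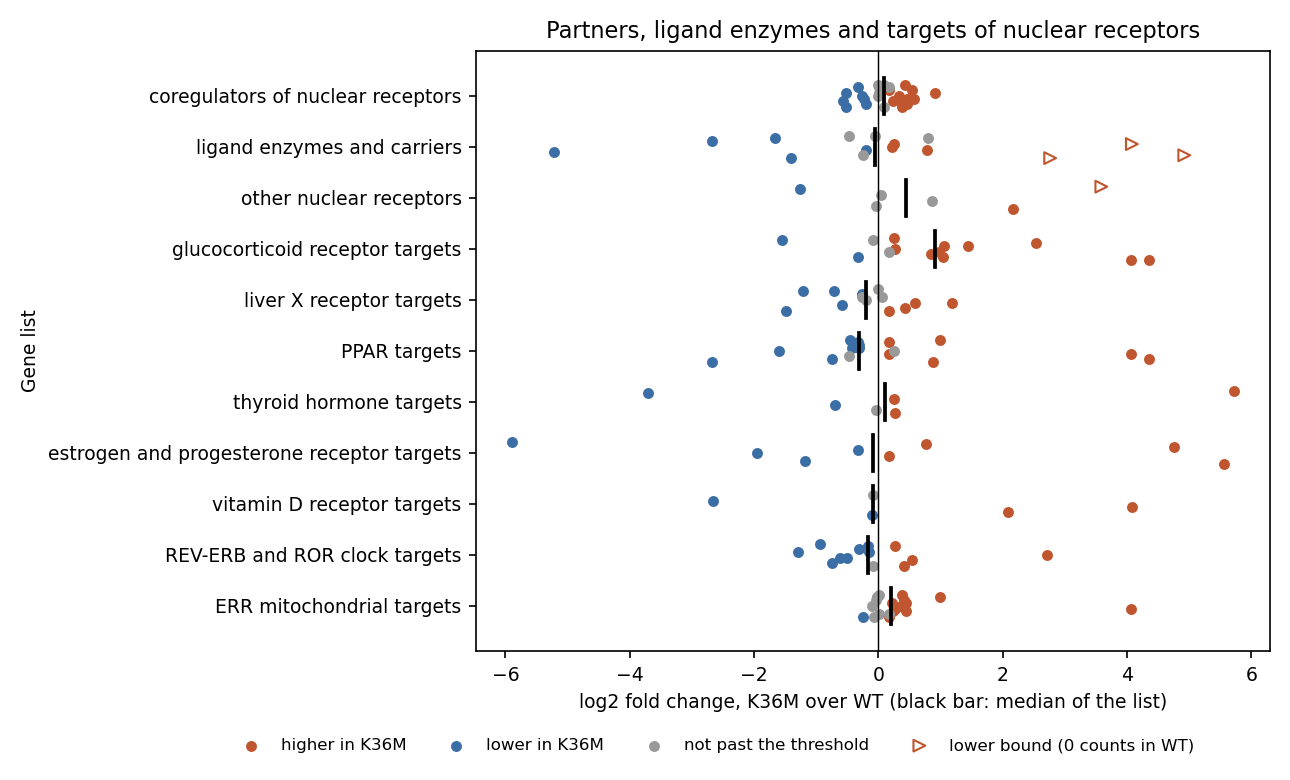
Log2 fold change of K36M over WT for the tested genes of 11 lists, coregulators, ligand enzymes, receptors outside the list and targets by receptor, with 1 point per gene coloured by its call, open triangles at the lower bound for genes with 0 WT counts, and a black bar at the median of the list. The glucocorticoid receptor targets have the median furthest to the right (0.91) and the PPAR targets the one furthest to the left (-0.31).

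Summed markers of several other cell types were unequal in WT and K36M. The summed level of 7 blood and macrophage markers was 3.55 to 3.62 CPM in WT and 34.1 to 36.04 CPM in K36M, the latter mostly from Hba-a1, with the defining marker Ptprc at 0 CPM in WT and at most 0.201 CPM in K36M. Sums for 6 epithelial markers were 11.03 to 12.1 and 24.3 to 25.8 CPM, with Epcam at 0 counts in all libraries, Cdh1 at 5.89 and 5.56 CPM in WT and 22.3 and 24.1 CPM in K36M, and Krt14 at 5.95 and 5.25 CPM in WT and 0.770 and 0.713 CPM in K36M. Sums were, for 5 endothelial markers 27.8 to 29.8 and 6.76 to 7.27 CPM, and for 4 neural and glial markers 17.3 to 18.1 and 26.7 to 27.2 CPM. The 5 liver markers summed to at most 0.121 CPM in WT and 0.835 CPM in K36M, mostly from Afp and Cyp7a1, with Ttr at 0 counts in all libraries and Alb at 0 in 3 of 4. The part of these markers in the receptor results was not tested. In bulk RNA, fewer cells that express a receptor and less of its RNA per cell cannot be told apart.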

How the data were processed

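RNA-seq libraries of 4 samples were grouped by their titles (WT, n = 2; K36M, n = 2). The matrix holds expected counts made by the authors with RSEM 1.2.12 and Bowtie 1.0.0 on mm9, per the submitters' processing notes, and used for EBSeq per the file headers. A second table holds log2 values deposited by the authors, equal to log2 of 1 plus the expected count after multiplication by a library factor (largest difference 5e-09), and a fold, the deposited ratio of K36M over WT; it gave the authors' factors (1.35, 1.46, 0.553 and 0.915). Expected counts were rounded, then tested in R 4.3.3 by edgeR 4.0.16 (filterByExpr, TMM, quasi-likelihood F test with 2 residual degrees of freedom, Benjamini-Hochberg), with SE taken as the log2 fold change over the square root of F. The fit moderates the spread of each gene toward that of all genes (mean prior of 15.7 degrees of freedom), so p-values rest largely on shared spread. The test was checked on simulated data with few changed genes and the same spread beyond counting error for all genes. That check does not show how the test performs where most genes are called, as here. CPM use TMM effective library sizes. Intervals and floors cover counting error only. The folds given as at least a value, and the lower bounds drawn for genes with 0 WT counts, take the K36M counts as exact. DESeq2 1.42.0 and limma 3.58.1 were alternatives. Receptors and lists were chosen with earlier results of these data known. All 34 receptors are reported; each further list names up to 4 called genes with the largest changes and at least 1 CPM in a group. No library was a copy of another: the chi-square between replicates averaged 3.68 over WT genes and 7.54 over K36M genes, where counting error alone gives 1. The transcript lengths, exon overlaps and promoters come from GRCm38, not mm9, and no coordinate was joined to the matrix. Results for some receptors outside the list are not reported here.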

Additional observations from a re-analysis of the deposited data

How the results depend on the processing

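The numbers of receptors, of all genes, and of genes in the further lists as 1 pool that were called in each direction stayed within 1.5 times the reported counts under every alternative run. Single lists moved by more. Ligand enzymes went from 6 to 2 higher and 5 to 2 lower at a mean of at least 5 CPM. Lower targets of the estrogen-related receptors went from 1 to 5 with the authors' factors. Higher vitamin D targets went from 2 to 1 at a mean of at least 5 CPM. Lower thyroid and lower vitamin D targets went from 2 to 1 where the calls of Mbp or Cdkn1a were lost, or at a mean of at least 5 CPM. Higher receptors numbered 7 to 11 and lower ones 8 to 12, and leaving out 1 library in turn gave 8 to 10 and 9 to 10. Of the tested receptors, those that changed sign were not past the threshold in either case: Nr1h2 had log2 fold changes of 0.0102 with upper quartile scaling and 0.0194 with total counts, and -0.0841 to 0.0131 when 1 library was left out in turn, and Nr4a3 had -0.121 to 0.344 when 1 library was left out. The cause was not tested. A mean of at least 5 CPM left 18 receptors, so Thrb, Ppara, Esr1, Esr2 and Rora had no value there. Samples with the same replicate number did not deviate together (correlation of deviations 0.00043), and with the replicate number as a replicate block 8 receptors were higher and 9 lower, Nr2c2 being the call lost. Depth limits Nr1h3, Nr4a3, Nr3c2 and the 8 untested receptors. Leaving out a library leaves 1 in its group, which is then assumed to vary like the other group.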
